A study of Mus musculus with 14 samples.

Results

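The genes described here are 40 factors that build ribosomes in the nucleolus and in the particles that leave it. They were given as a list of gene names. The list was chosen with earlier results of these data known, so its counts beside all genes describe it and do not test it. All 40 were found by symbol among the 38926 gene entries of the LSK and MyePro libraries, and all 40 by Ensembl ID among the 39179 entries of the LT-HSC libraries. They fall into 6 roles: 6 genes of RNA polymerase I and the nucleolar scaffold, 4 of the box C/D and 4 of the box H/ACA ribonucleoproteins, 9 of the small subunit processome, 5 of late small subunit maturation and 12 of large subunit assembly.

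RNA was sequenced from mouse bone marrow cells bred to lose Dpy30 (KO) and from cells that keep 1 working copy (control). DPY30 is a core subunit of the complexes that methylate lysine 4 of histone H3. KO cells were Mx1-Cre; Dpy30F/- and control cells were Mx1-Cre; Dpy30F/+, so both genotypes carried the Cre transgene and a floxed allele, and the controls lose 1 allele when Cre acts. Donor marrow (CD45.2+) was mixed with wild-type competitor marrow (CD45.1+) and placed in irradiated recipients, and every recipient was given pIpC at 7.5 µg/g, 4 times from 7 weeks after transplantation. The Mx1 promoter that drives Cre responds to interferon, which pIpC induces, so both genotypes had an interferon stimulus. The labels call the LT-HSC donor-derived and do not say so of the other cells. Cells were sorted from lineage-depleted marrow 2 weeks after the last injection. LSK cells, which hold the stem cells and multipotent progenitors, and MyePro cells, a more differentiated population whose gate the labels do not give, had 1 KO and 1 control library each, from pools of 2 to 3 mice. Long-term hematopoietic stem cells (LT-HSC) had 2 KO and 2 control libraries, 1 of each genotype from transplants 1 and 2, from pools of 7 to 9 mice, and their RNA was amplified first. The ages of the donors and recipients are not given in the labels.

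A ribosome begins as a long precursor RNA that RNA polymerase I transcribes in the nucleolus. Small nucleolar ribonucleoproteins mark sites of this RNA for ribose methylation (box C/D) or conversion to pseudouridine (box H/ACA), and the small subunit processome folds and cuts it. The small and large subunits then mature apart, with their own assembly factors, before export to the cytoplasm. The work is among the most costly of a growing cell, and many of its genes are known targets of the transcription factor MYC. Adult stem cells are known to make protein more slowly than the progenitors that follow them.

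Gene counts numbered 6130320 in KO LSK, 14974432 in control LSK, 11531994 in KO MyePro and 20820762 in control MyePro, and 38060087 to 85499797 in the LT-HSC libraries. Each member had at least 189 counts in every LSK and MyePro library and at least 105 in every LT-HSC library, so counting error was small beside the differences described in MyePro. Levels are counts scaled to a common library size (counts per 1e6, CPM) after TMM normalization, which sets libraries against each other by their middle genes. Dpy30 itself stood at 42.3 CPM in KO LSK, against 78.0 CPM in control LSK, and at 51.8 CPM in KO MyePro, against 114 CPM in control MyePro. In LT-HSC it stood at 14.1 CPM (transplant 1) and 4.67 CPM (transplant 2) in the libraries labelled KO, against 12.9 and 8.43 CPM in the controls, so that of transplant 1 held no less Dpy30 RNA than the controls. The LT-HSC groups also differed in sex-linked transcripts. Ddx3y, a Y-linked gene, had 0 and 2 counts in the libraries labelled KO, against 670 and 377 in the controls, and Xist, the RNA that coats the inactive X, had 107396 and 102446 counts in the libraries labelled KO, against 11082 and 6476 in the controls. In LSK and MyePro, Ddx3y was read in every library (222 counts in KO LSK, 631 in control LSK, 304 in KO MyePro and 729 in control MyePro) and Xist had 7 counts or fewer. Kit, the receptor that marks stem cells and early progenitors, was present throughout, at 393 CPM in KO LSK, 491 in control LSK, 242 in KO MyePro and 395 in control MyePro, and in LT-HSC at 163 and 179 CPM in the libraries labelled KO, against 237 and 109 CPM in the controls.

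Loss of Dpy30 was compared with the control in LSK and MyePro first. All 40 members were lower in KO than in control in both populations, and all 40 were further below control in MyePro than in LSK. The summed level of the 40 genes was 5741 CPM in KO LSK, against 8547 CPM in control LSK, or 67.2% of it. In MyePro the sum was 5429.8 CPM in KO, against 12281 CPM in control, or 44.2%. Without Ncl and Npm1, the members with the most counts, the KO sums were 71.0% and 49.1% of control. With 1 library per group there is no replicate check and no test, and the 95% intervals below cover counting error only. In sorted bulk cells, fewer cells that express a gene and less RNA of it per cell cannot be told apart.

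In LSK the median log2 ratio of KO over control was -0.52 over the members, against -0.04 over the 10311 genes counted (a mean of at least 5 CPM). All 40 ratios were below 0, where 53.6% of all genes were. Of the members, 18 were at least 1.5-fold lower, where 12.7% of all genes were, and 0 were at least 2-fold lower, where 5.39% of all genes were. The members' differences in LSK were thus common to the list but modest in size. The interval lay below 0 for 35 members, where 35.0% of all genes had it there, and held 0 for 5 (Nop10, Gar1, Bop1, Pes1 and Nop16). Scaling to library totals in place of TMM left 36 members lower and 9 at least 1.5-fold lower, and it moved the median of all genes to 0.09.

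In MyePro the median log2 ratio was -1.12 over the members, against -0.08 over the 10244 genes counted. All 40 were lower in KO, where 55.3% of all genes were. At least 1.5-fold lower were 36 members, against 20.7% of all genes, and at least 2-fold lower were 25 members, against 7.99% of all genes. The interval lay below 0 for all 40, where 44.4% of all genes had it there. Both ratios were below 0 for all 40 members, where 43.6% of 9979 genes counted in both populations were. The ratio was lower in MyePro than in LSK for all 40 members, where 54.0% of those genes showed this, and this difference between populations was not tested, since each rests on single libraries.

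**Figure D1:**
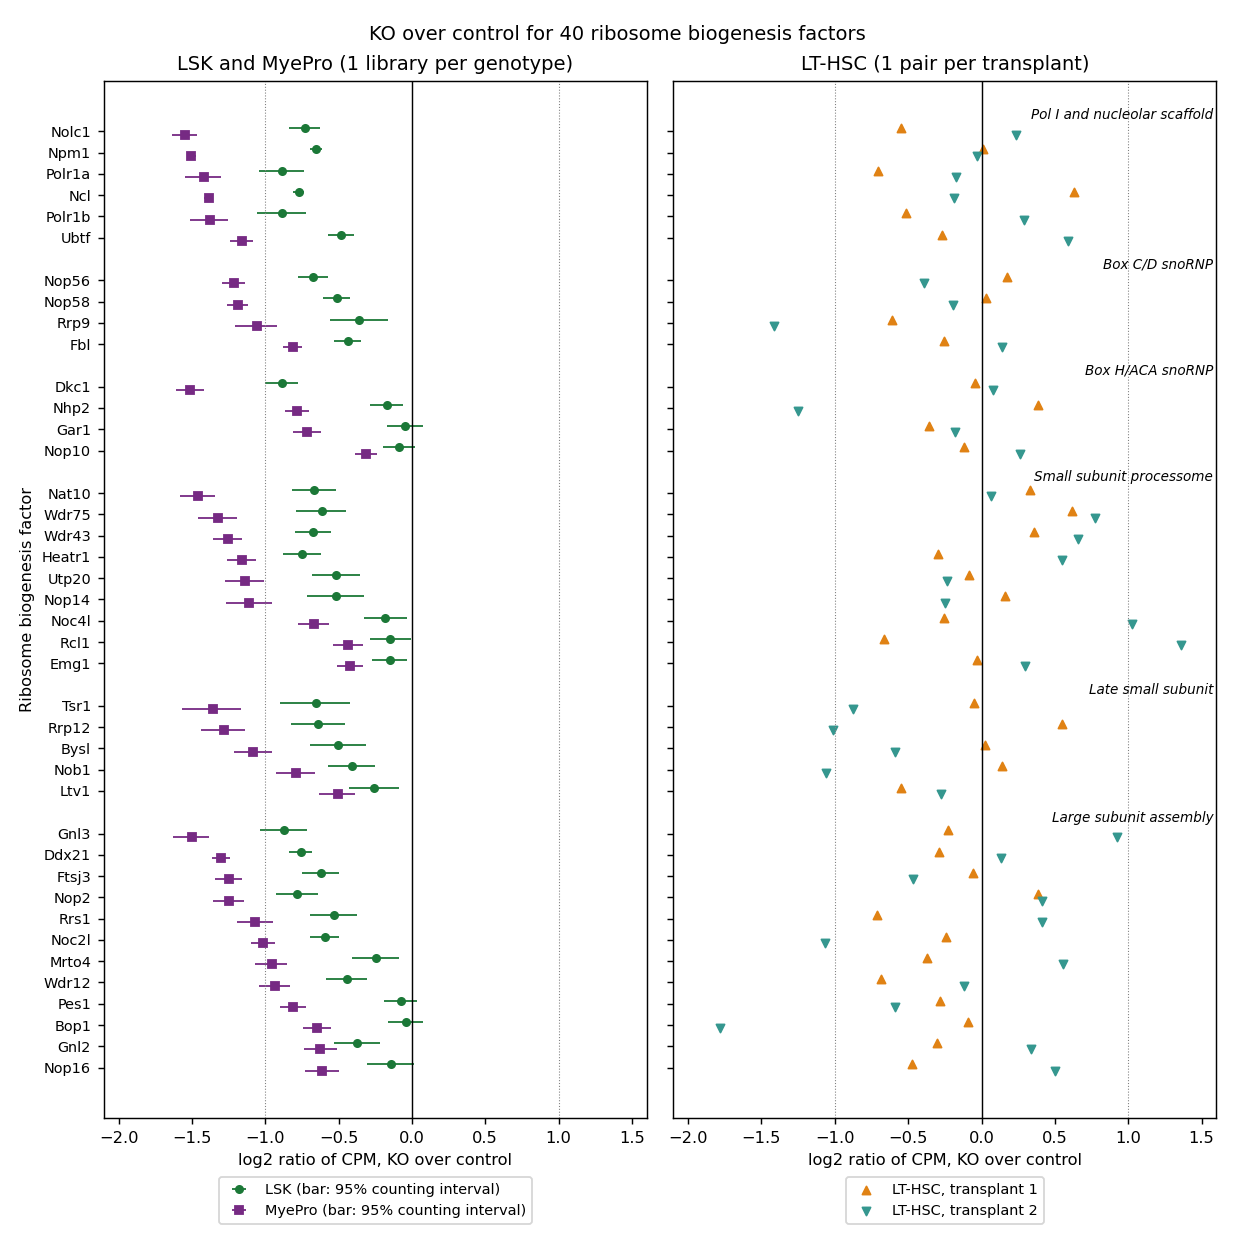
The left panel plots the log2 ratio of KO over control CPM for each of the 40 members, by role, in LSK (circles) and MyePro (squares) with 95% counting intervals, and the right panel plots the same ratio in LT-HSC for transplant 1 (up triangles) and transplant 2 (down triangles), 1 pair of libraries each. Every LSK and MyePro point lies left of 0 and every MyePro point left of its LSK point, from -0.89 to -0.04 in LSK and from -1.55 to -0.31 in MyePro, while the LT-HSC points scatter on both sides of 0.

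The transcription machinery and scaffold of the nucleolus held the lowest median ratio of any role, -0.75 in LSK and -1.40 in MyePro. Polr1a (ENSMUSG00000049553; chr6:71909053-71979435, positions from the GRCm38.p6 annotation) encodes the largest subunit of RNA polymerase I. It stood at 67.4 CPM in KO LSK, against 125 CPM in control LSK (log2 ratio -0.89, interval -1.04 to -0.74), and at 58.7 CPM in KO MyePro, against 157 CPM in control MyePro (log2 ratio -1.42, interval -1.54 to -1.30). Polr1b, the other large subunit of that enzyme, stood at 56.6 CPM in KO LSK, 105 in control LSK, 52.5 in KO MyePro and 137 in control MyePro. Both subunits were thus near 54% of control in LSK and below 40% of it in MyePro. Ubtf, which binds the ribosomal RNA genes and recruits the polymerase, stood at 205 CPM in KO LSK, 287 in control LSK, 147 in KO MyePro and 329 in control MyePro. Its level in KO MyePro was the lowest of the 4 libraries, and its LSK ratio of -0.49 was the smallest difference in this role.

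Ncl (ENSMUSG00000026234; chr1:86344719-86359455), nucleolin, is an abundant RNA-binding protein of the nucleolus. It stood at 1034 CPM in KO LSK, against 1766 CPM in control LSK (log2 ratio -0.77, interval -0.81 to -0.73), and at 960.5 CPM in KO MyePro, against 2508 CPM in control MyePro (log2 ratio -1.38, interval -1.41 to -1.35). Npm1 (ENSMUSG00000057113; chr11:33152498-33164142), nucleophosmin, a histone and assembly chaperone that moves between nucleolus and cytoplasm, stood at 906 CPM in KO LSK, 1427 in control LSK, 835 in KO MyePro and 2366 in control MyePro. Npm1 has processed pseudogenes in the mouse, so its level rests on how the authors' counting placed shared reads. Nolc1, a chaperone of small nucleolar ribonucleoproteins, stood at 135 CPM in KO LSK, 225 in control LSK, 119.6 in KO MyePro and 350.4 in control MyePro, and its MyePro ratio was the lowest of all members (-1.55, interval -1.64 to -1.47). For all 3 of these genes, control MyePro was the highest of the 4 libraries and the 2 KO libraries lay close together, below both controls.

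The box C/D ribonucleoprotein, whose catalytic member methylates ribose, had a median of -0.48 in LSK and -1.12 in MyePro. Fbl, fibrillarin, the methyltransferase itself, stood at 206 CPM in KO LSK, 279 in control LSK, 226 in KO MyePro and 397 in control MyePro. Nop58, a scaffold protein of the particle, stood at 187 CPM in KO LSK, 268 in control LSK, 163 in KO MyePro and 371 in control MyePro, and its partner Nop56 at 149 CPM in KO LSK, 238 in control LSK, 138 in KO MyePro and 320.0 in control MyePro. The scaffold pair was thus lower relative to control (log2 ratio in MyePro -1.19 for Nop58 and -1.22 for Nop56) than the enzyme (-0.81). Rrp9, a protein of the particle that guides early cleavage of the precursor, stood at 42.6 CPM in KO LSK, 54.7 in control LSK, 43.9 in KO MyePro and 91.7 in control MyePro.

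The box H/ACA ribonucleoprotein has 4 proteins, and they did not share 1 ratio. Dkc1 (ENSMUSG00000031403; chrX:75095854-75109776), dyskerin, the pseudouridine synthase, which is also part of telomerase, stood at 119 CPM in KO LSK, against 219 CPM in control LSK (log2 ratio -0.89), and at 97.1 CPM in KO MyePro, against 277 CPM in control MyePro (log2 ratio -1.51, interval -1.61 to -1.42). These were among the 3 lowest ratios of all members in both populations. The 3 small proteins bound to it differed less from control. Nop10 stood at 149 CPM in KO LSK, 159 in control LSK, 178 in KO MyePro and 222 in control MyePro, with the smallest MyePro difference of all members (-0.31, interval -0.39 to -0.24). Gar1 stood at 119.6 CPM in KO LSK, 123 in control LSK, 111 in KO MyePro and 182 in control MyePro, and its LSK interval held 0 (-0.05, interval -0.17 to 0.08). Nhp2 stood at 135 CPM in KO LSK, 152 in control LSK, 139.7 in KO MyePro and 240.0 in control MyePro. The catalytic subunit thus stood apart from its 3 partners in LSK, where their ratios were -0.09, -0.05 and -0.17, and the intervals of the partners did not overlap that of Dkc1.

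Among the 9 processome members the medians were -0.52 in LSK and -1.14 in MyePro, and they formed a larger and a smaller set of differences. A set of 6 (Heatr1, Utp20, Wdr43, Wdr75, Nop14 and Nat10) had MyePro ratios of -1.11 to -1.46. Wdr43, a subunit that takes part in transcription of the precursor, stood at 106 CPM in KO LSK, 169 in control LSK, 93.6 in KO MyePro and 224 in control MyePro. Nat10, which acetylates cytidines of the small subunit RNA, stood at 71.7 CPM in KO LSK, 114 in control LSK, 59.9 in KO MyePro and 165 in control MyePro. Wdr75, a companion of Wdr43, stood at 54.3 CPM in KO LSK, 83.2 in control LSK, 50.5 in KO MyePro and 126 in control MyePro. In these 3 genes both KO libraries lay below both controls. The other 3 members differed less. Emg1, a methyltransferase of a modified base in the small subunit RNA, stood at 121 CPM in KO LSK, 134 in control LSK, 135 in KO MyePro and 181 in control MyePro. Rcl1, an early cleavage factor known from yeast, stood at 88.5 CPM in KO LSK, 98.0 in control LSK, 100.2 in KO MyePro and 136 in control MyePro, and Noc4l, a small subunit assembly factor, at 81.2 CPM in KO LSK, 92.1 in control LSK, 86.8 in KO MyePro and 138 in control MyePro. In Emg1 and Rcl1, as in Nop10, KO MyePro lay above control LSK. The share of all genes with both KO libraries below both controls was not counted, so this order is only described, gene by gene.

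The late small subunit factors had medians of -0.50 in LSK and -1.08 in MyePro. Bysl, bystin, stood at 44.3 CPM in KO LSK, 62.8 in control LSK, 53.7 in KO MyePro and 114 in control MyePro. Ltv1, which is released from the particle in its last steps, stood at 59.6 CPM in KO LSK, 71.1 in control LSK, 67.1 in KO MyePro and 95.4 in control MyePro, the smallest MyePro difference of this role (-0.51). Nob1, the nuclease that makes the final cut of the small subunit RNA, stood at 63.2 CPM in KO LSK, 84.0 in control LSK, 55.7 in KO MyePro and 96.4 in control MyePro. Tsr1 and Rrp12, which act in cytoplasmic maturation and export, had the lowest ratios here, -0.66 and -0.64 in LSK and -1.36 and -1.28 in MyePro. The 5 ratios came in the same order in LSK and MyePro, with Tsr1 lowest and Ltv1 highest in each.

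The large subunit assembly factors had medians of -0.49 in LSK and -0.99 in MyePro and a wide span in LSK, from -0.87 to -0.04. Bop1 and Pes1 belong with Wdr12 to 1 complex that is needed to process the large subunit RNA. Bop1 stood at 124 CPM in KO LSK, 127 in control LSK, 112 in KO MyePro and 176 in control MyePro, with an LSK interval that held 0 (-0.04, interval -0.16 to 0.08). Pes1 stood at 141 CPM in KO LSK, 149 in control LSK, 122 in KO MyePro and 215 in control MyePro (LSK log2 ratio -0.08, interval -0.19 to 0.04). Wdr12 stood at 84.1 CPM in KO LSK, 114 in control LSK, 84.9 in KO MyePro and 162 in control MyePro. In LSK the ratio of Wdr12 was -0.44 and its interval did not overlap those of Bop1 and Pes1, while in MyePro all 3 were lower, by log2 ratios of -0.65, -0.81 and -0.93. Both controls exceeded both KO libraries for each of the 3.

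Gnl3, nucleostemin, a nucleolar GTPase known from stem and tumour cells, had the lowest ratios of the large subunit role, -0.87 in LSK and -1.50 in MyePro, at 61.7 CPM in KO LSK, 113 in control LSK, 58.9 in KO MyePro and 167 in control MyePro. Nop2, a methyltransferase of the large subunit RNA, stood at 74.4 CPM in KO LSK, 128 in control LSK, 78.2 in KO MyePro and 186 in control MyePro. Mrto4, a placeholder for a stalk protein of the subunit, stood at 69.1 CPM in KO LSK, 82.0 in control LSK, 77.8 in KO MyePro and 151 in control MyePro. The KO libraries of these 3 genes lay below both controls, and control MyePro was highest. Ddx21, an RNA helicase of the nucleolus, stood at 242 CPM in KO LSK, 410.0 in control LSK, 229.6 in KO MyePro and 566 in control MyePro, and Noc2l, whose yeast relative moves early large subunit particles through the nucleus, at 159.7 CPM in KO LSK, 241 in control LSK, 136 in KO MyePro and 275 in control MyePro. Ftsj3, another methyltransferase, and Rrs1, Gnl2 and Nop16, further assembly factors, had MyePro ratios of -1.25, -1.07, -0.62 and -0.61. Gnl2 and Nop16 were thus among the members that differed less, and Ftsj3 among those that differed more.

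**Figure D2:**
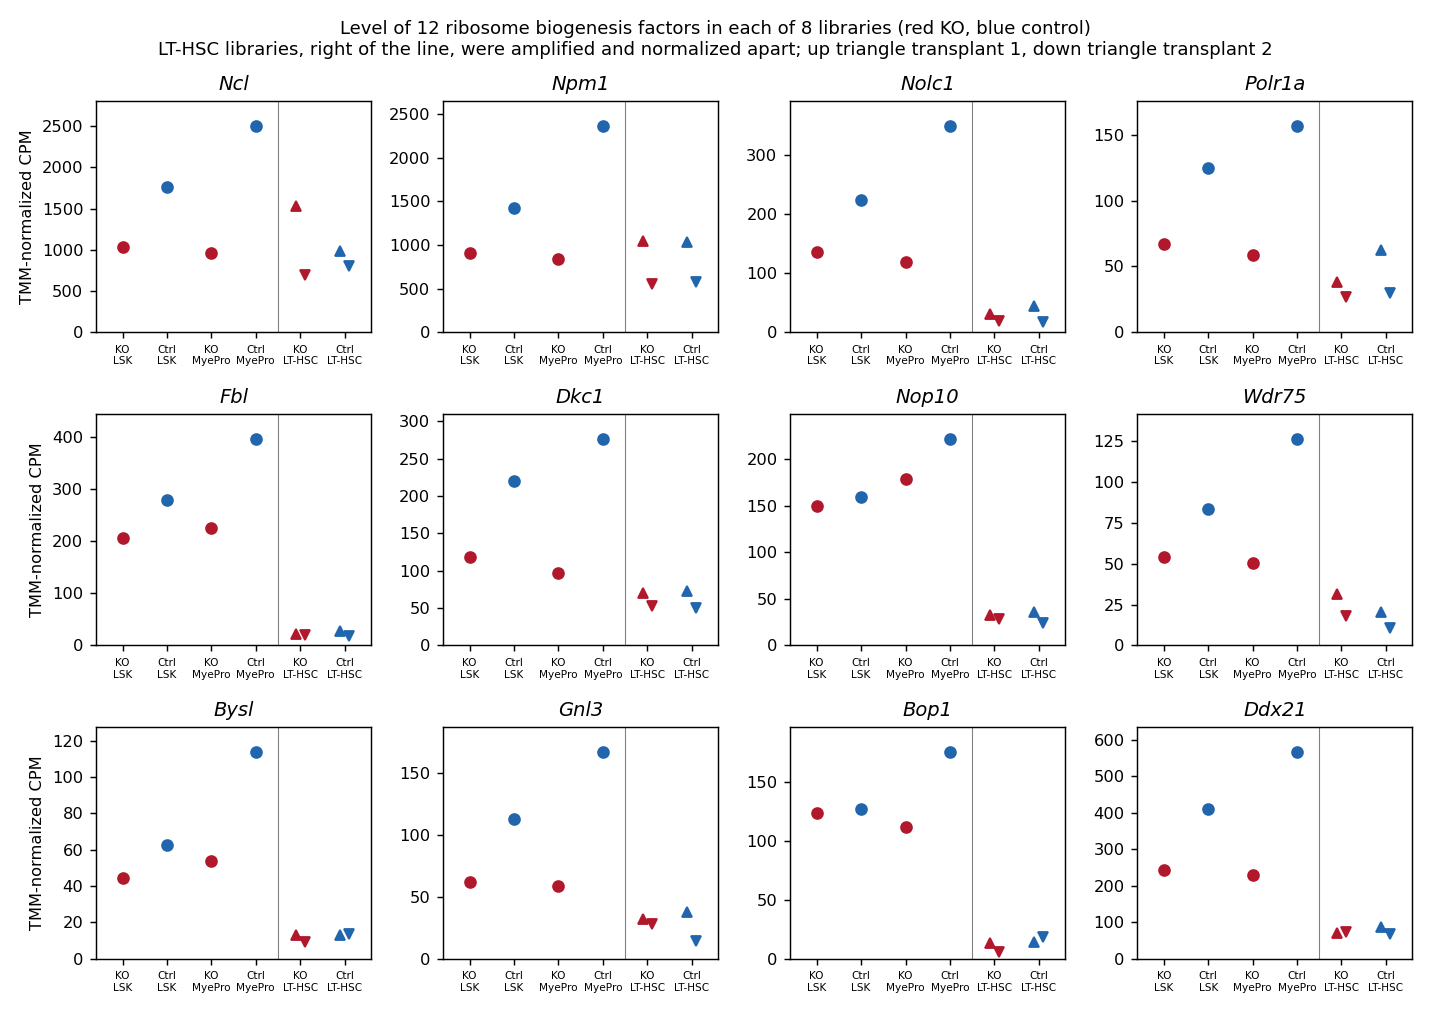
TMM-normalized CPM of 12 members is plotted from 0 in each of the 8 libraries, 1 point per library, libraries labelled KO in red and control in blue, with the amplified LT-HSC libraries right of the line (transplant 1 up, transplant 2 down). Control MyePro is the highest of the 4 LSK and MyePro libraries in every panel, while the LT-HSC points of the genotypes overlap for all but Bop1.

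Across the 40 members the ratios of the 2 populations ordered the genes alike. Spearman's rho between the LSK and MyePro ratios was 0.89 (Pearson 0.90, n = 40 genes), against 0.73 (Pearson 0.74) over all 9979 genes counted in both. Each value rests on 1 pair of libraries per population, and genes are not independent replicates. The ratios of LSK and LT-HSC gave a rho of -0.21 over the 40, and those of MyePro and LT-HSC -0.16.

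**Figure D3:**
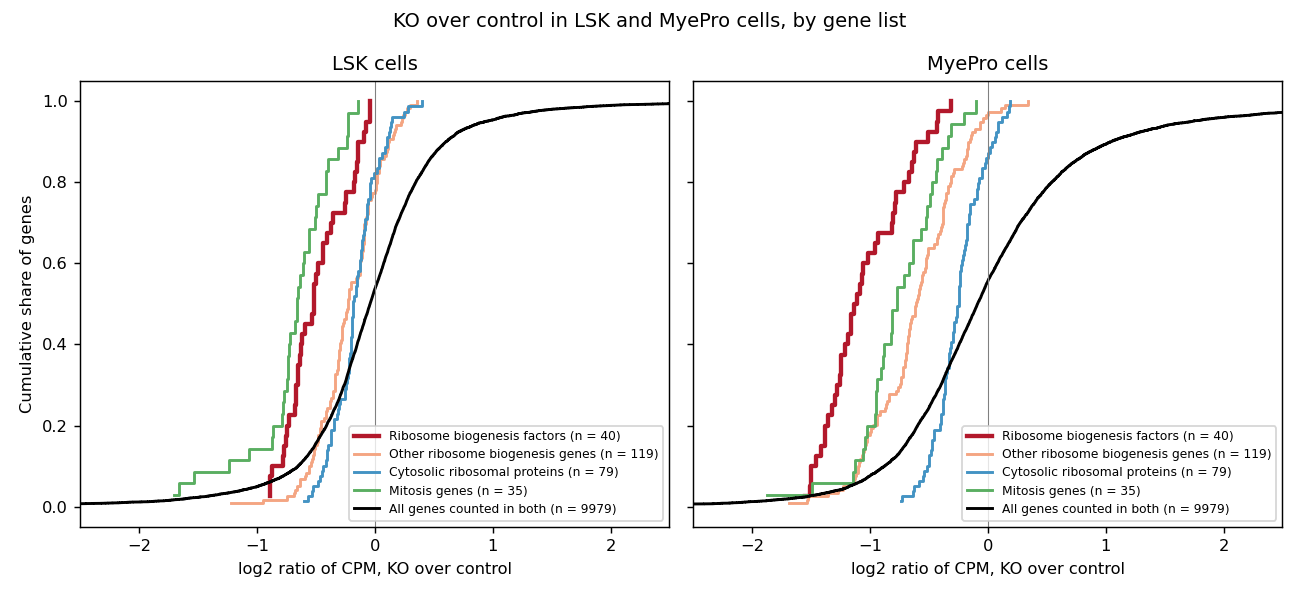
Cumulative shares of genes are plotted against the log2 ratio of KO over control CPM in LSK (left) and MyePro (right) for the 40 members, other ribosome biogenesis genes, cytosolic ribosomal proteins, mitosis genes and the 9979 genes counted in both populations. At the middle of the curves the members lie furthest left in MyePro, with a median of -1.12, against -0.77 for mitosis genes and -0.61 for other biogenesis genes, whereas in LSK the mitosis genes do, with a median of -0.66, against -0.52 for the members. The lists were chosen with earlier results of these data known, so the order of the curves is description only.

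Other genes of the same pathway were read from a list of 124. In LSK 92 of the 119 counted were lower in KO, where 53.6% of all genes were, with a median of -0.23. At least 1.5-fold lower were 9, where 12.7% of all genes were, and at least 2-fold lower was 1, where 5.39% were. That 1 gene was Mdn1, the large ATPase that pulls assembly factors off the large subunit, at 42.2 CPM in KO LSK, against 98.3 CPM in control LSK (log2 ratio -1.22). In MyePro 116 of 119 were lower, where 55.3% of all genes were, with a median of -0.61. At least 1.5-fold lower were 63, where 20.7% of all genes were, and at least 2-fold lower were 21, where 7.99% were. Pop1, a protein of RNase P and MRP, had the lowest ratio (-1.68), at 17.4 CPM in KO MyePro, against 56.3 CPM in control MyePro. Rrp1b (-1.53), a large subunit factor, Naf1 (-1.52), which assembles the box H/ACA particle, and Tcof1 (-1.19), treacle, which aids transcription of ribosomal RNA genes, were also past 2-fold. None of the 119 was at least 1.5-fold higher in KO in either population. Over all genes 1143 of 10311 were in LSK and 1987 of 10244 in MyePro.

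The protein parts of the ribosome did not differ by as much. Of 79 cytosolic ribosomal protein genes 65 were lower in KO LSK, where 53.6% of all genes were, with a median of -0.18. In KO MyePro 69 were lower, where 55.3% of all genes were, with a median of -0.25. At least 1.5-fold lower were 1 in LSK and 4 in MyePro, where 12.7% and 20.7% of all genes were. Genes of cell division were lower too. Of 35 mitosis genes all 35 were lower in both populations, where 43.6% of 9979 genes were. Their medians were -0.66 in LSK and -0.77 in MyePro. The median of 46 DNA replication genes was -0.33 in LSK and, over the 45 counted, -0.60 in MyePro. In LSK the mitosis median was thus lower than that of the 40 members, and in MyePro it was higher.

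Levels of the MYC family, transcription factors with many known targets in this pathway, also differed between the genotypes. Myc stood at 279 CPM in KO LSK, 409 in control LSK, 186 in KO MyePro and 502 in control MyePro. Mycn, its relative, stood at 93.6 CPM in KO LSK, 54.1 in control LSK, 48.7 in KO MyePro and 8.33 in control MyePro, and so was higher in KO of both populations. Mycl had 0 counts in both KO libraries, against 90 counts in control LSK and 28 in control MyePro. The part of these levels in the members' differences was not tested.

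Markers of other cells also moved with the groups. Of 16 erythroid markers counted, 15 were lower in KO LSK and 16 in KO MyePro, and the sum of all 18 listed was 901 CPM in KO LSK, against 1962 CPM in control LSK, and 1028 CPM in KO MyePro, against 6495 CPM in control MyePro. The defining marker Slc4a1 was at 0 in KO LSK and below 1 CPM in the other 3 libraries. Megakaryocyte markers summed to 2263 CPM in KO MyePro, against 259.6 CPM in control MyePro, with 13 of 13 higher. Mature neutrophil markers summed to 769 CPM in KO MyePro, against 39.98 CPM in control MyePro, with Ly6g at 0 in all 4 libraries. Of the 11 neutrophil markers listed, 4 were counted in each population, and all 4 were higher in KO. Myeloid progenitor markers summed to 7108 CPM in KO MyePro, against 11465 CPM in control MyePro, with 6 of 12 lower. Their sum in KO LSK was 3231 CPM, against 3430 CPM in control LSK, although 9 of 12 were higher. In LSK, megakaryocyte markers summed to 1207 CPM in KO LSK, against 770.2 CPM in control LSK, and stem and multipotent progenitor markers to 1769.6 CPM in KO LSK, against 2233 CPM in control LSK, with 9 of 12 lower. Macrophage and dendritic markers summed to 334 CPM in KO LSK, against 946 CPM in control LSK, although 6 of the 9 counted were higher, and to 422 CPM in KO MyePro, against 169.7 CPM in control MyePro. T and NK cell markers summed to 590.0 CPM in KO LSK, against 218 CPM in control LSK. In MyePro they summed to 648 CPM in KO, against 209 CPM in control. Of the 11 listed, 3 of the 4 counted were higher in KO LSK and 3 of 3 in KO MyePro. Stromal and endothelial markers summed to 261 CPM in KO LSK, against 133 CPM in control LSK. In MyePro they summed to 289 CPM in KO, against 91.0 CPM in control. Of the 9 listed, 4 were counted in each population, and all 4 were higher in KO. Genes of the neutrophil, T and NK and stromal lists could reach the mean of 5 CPM through the KO library alone. The directions of those counted thus add nothing to the sums. Marker levels thus differed between the genotypes in both populations. In LT-HSC, myeloid progenitor markers summed to 122 and 316 CPM (transplants 1 and 2) in the libraries labelled KO, against 94.7 and 389 CPM in the controls. All 16 erythroid markers tested there were lower in KO, where 49.7% of all genes were. Their median was -1.11, and 0 passed an adjusted p of 0.05 (edgeR). The part of these markers in the members' ratios was not tested. An entry for ribosomal RNA repeats, Gm26924, took 1.69% of gene counts in KO LSK, against 5.37% in control LSK, and 5.08% in KO MyePro, against 1.01% in control MyePro, so it moved in opposite directions while the members were lower in both. With that entry left out of library totals, which was tried after seeing the data, 37 members were lower in LSK and 40 in MyePro.

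The design also asked how expression differs between MyePro and LSK within each genotype. In control cells all 40 members were higher in MyePro than in LSK, where 55.1% of 10059 genes were, with a median log2 ratio of 0.48, against 0.05 over all genes. The differences were small: 8 members were at least 1.5-fold higher, where 8.92% of all genes were, and 0 at least 2-fold, where 3.01% were. Mrto4 (0.88), Bysl (0.86) and Rrp9 (0.74) had the highest ratios, and Noc2l (0.19), Nob1 (0.20) and Ubtf (0.20) the lowest. The counting interval lay above 0 for all 40, where 40.2% of all genes had it there.

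In KO cells the members did not show this step. The median log2 ratio of MyePro over LSK was -0.10 in KO, against 0.00 over 10360 genes, with 25 members lower, where 50.1% of all genes were, and 15 higher. None was 1.5-fold different, where 5.53% of all genes were 1.5-fold lower and 8.38% 1.5-fold higher. The interval lay below 0 for 17 members, where 24.3% of all genes had it there, above 0 for 7, where 24.6% did, and held 0 for 16. The range ran from -0.48 for Ubtf to 0.28 for Bysl. Higher in control MyePro yet lower in KO MyePro, each against its own LSK, were 25 members, where 21.9% of 9725 genes were. In 17 members the interval lay below 0 in KO and above 0 in control, where 5.56% of those genes showed this. All 6 genes of the polymerase and scaffold role were among the 25, and their median was -0.15 in KO and 0.45 in control. They were not all among the 17, since the KO interval of Polr1b held 0 (-0.29 to 0.08). These ratios use the same 4 libraries as the comparisons of KO with control, so they restate those values from another side and add no separate evidence. Of the cytosolic ribosomal proteins, 70 of 79 were higher in KO MyePro than in KO LSK (median 0.14), where 5170 of 10360 genes were. The control median was 0.21.

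**Figure D4:**
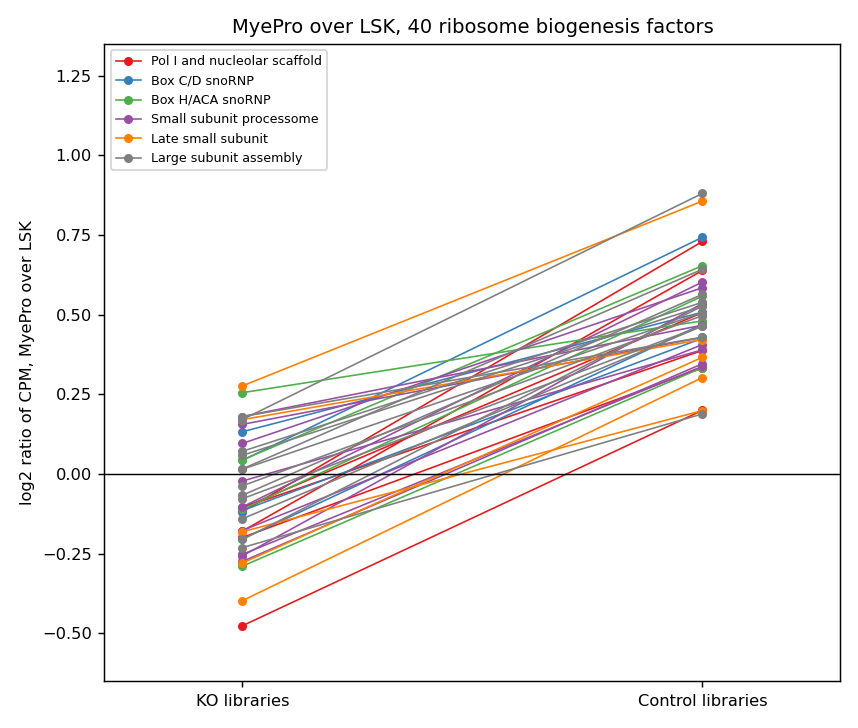
The log2 ratio of MyePro over LSK CPM is plotted for each of the 40 members in the KO libraries (left) and the control libraries (right), with a line joining the values of 1 gene and colours for the roles. Every line climbs toward control: the KO points lie from -0.48 (Ubtf) to 0.28 (Bysl) and the control points from 0.19 (Noc2l) to 0.88 (Mrto4).

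In LT-HSC, where 2 libraries per genotype allowed a test, no difference in the members was detectable. All 40 were tested among 12844 genes with edgeR's quasi-likelihood test, 0 passed a Benjamini-Hochberg adjusted p of 0.05, where 0.0156% of all genes did (2 genes), and every member had an adjusted p of 0.999. At an unadjusted p under 0.05 there were 0 members, where 2.29% of all genes were, and DESeq2 and limma-voom also called 0 members. The median log2 fold change was -0.06, with 26 members below 0, where 49.7% of all genes were. The median was -0.17 within transplant 1 and 0.02 within transplant 2. Standard errors of the members ran from 0.260 to 0.715 on the log2 scale. This fit had no block for transplant, so differences between the transplants enter these SE. By them the LSK median of -0.52 would be less than 2 SE for every member, though only just for the smallest SE.

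Most members were higher in transplant 1 than in transplant 2, whichever the genotype. The 40 members summed to 3806 and 2134 CPM in the libraries labelled KO, against 3357 and 2244 CPM in the controls, each pair in the order of transplant 1 and 2. In the libraries labelled KO 32 members were higher in transplant 1 than in transplant 2, where 49.9% of all genes were, and in the controls 35 were, where 49.7% were. The direction of the median hung on single libraries: it was 0.28 without control 1, -0.32 without control 2, -0.37 without the library labelled KO of transplant 1 and 0.07 without that of transplant 2. Scaling to ERCC spike-ins, RNAs added in known amounts, gave -0.25, and scaling to library totals gave -0.55, with 38 members below 0.

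Single members show the same spread. Ncl stood at 1532 and 699.6 CPM in the libraries labelled KO, against 991 and 799 CPM in the controls, with a log2 fold change of 0.32 ± 0.411 (SE). Npm1 stood at 1044 and 557 CPM in the libraries labelled KO, against 1037 and 570.0 CPM in the controls, which overlap. Polr1a, which had the lowest ratio in LSK, stood at 38.3 and 26.7 CPM in the libraries labelled KO, against 62.5 and 30.1 CPM in the controls (-0.51 ± 0.404, SE), lower in the library labelled KO within each transplant yet overlapping across them. Dkc1, which lies on the X chromosome, stood at 70.2 and 53.2 CPM in the libraries labelled KO, against 72.2 and 50.4 CPM in the controls (0.01 ± 0.299, SE). Its groups overlapped. The sex-linked transcripts differed between the groups, and their part in the level of Dkc1 was not tested.

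The 3 lowest LT-HSC fold changes were those of Rrp9, Bop1 and Noc2l. Rrp9 stood at 2.12 and 3.42 CPM in the libraries labelled KO, against 3.26 and 9.20 CPM in the controls (-1.17 ± 0.715, SE). Bop1 stood at 13.4 and 5.34 CPM in the libraries labelled KO, against 14.3 and 18.5 CPM in the controls (-0.81 ± 0.519, SE). Noc2l stood at 42.9 and 18.6 CPM in the libraries labelled KO, against 50.7 and 39.0 CPM in the controls (-0.54 ± 0.423, SE). Of these, Bop1 alone had both libraries labelled KO below both controls. It shared this with Gar1 (21.5 and 20.9 CPM in the libraries labelled KO, against 27.6 and 23.7 CPM in the controls) and Ltv1 (18.9 and 16.0 CPM in the libraries labelled KO, against 27.7 and 19.4 CPM in the controls), 3 members in all, where 13.9% of all genes showed it. In 0 members did both lie above both controls, where 13.8% of all genes did.

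The 3 highest were Wdr75, Wdr43 and Nop2. Wdr75 stood at 31.6 and 18.3 CPM in the libraries labelled KO, against 20.7 and 10.7 CPM in the controls (0.67 ± 0.450, SE). Wdr43 stood at 75.7 and 55.1 CPM in the libraries labelled KO, against 58.9 and 34.9 CPM in the controls (0.48 ± 0.339, SE). Nop2 stood at 32.2 and 17.4 CPM in the libraries labelled KO, against 24.7 and 13.0 CPM in the controls (0.39 ± 0.451, SE). Each was higher in the library labelled KO of both transplants, and so was Nat10, 4 members in all, where 24.9% of all genes showed this. A further 11 members were lower in both transplants, where 24.4% of all genes were, and the other 25 differed in sign between the transplants (16 lower in transplant 1 only and 9 lower in transplant 2 only).

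The members named for their LSK and MyePro values mostly overlapped between the LT-HSC groups. Polr1b stood at 17.0 and 13.6 CPM in the libraries labelled KO, against 24.3 and 11.1 CPM in the controls. Nolc1 stood at 30.8 and 19.7 CPM in the libraries labelled KO, against 45.0 and 16.7 CPM in the controls. Ubtf stood at 48.1 and 43.3 CPM in the libraries labelled KO, against 57.8 and 28.8 CPM in the controls. In these 3 nucleolar genes the control of transplant 1 was the highest of the 4 libraries and the control of transplant 2 the lowest. Among the ribonucleoprotein genes, Fbl had 22.4 and 19.98 CPM in the libraries labelled KO, against 26.8 and 18.1 CPM in the controls, Nop58 had 116 and 67.3 CPM in the libraries labelled KO, against 114 and 77.1 CPM in the controls, and Nop10 had 32.6 and 28.6 CPM in the libraries labelled KO, against 35.4 and 23.8 CPM in the controls. All 3 lay higher in transplant 1 in either genotype. The small subunit genes Emg1 (22.0 and 19.6 CPM in the libraries labelled KO, against 22.4 and 16.0 CPM in the controls) and Rcl1 (8.47 and 13.8 CPM in the libraries labelled KO, against 13.5 and 5.36 CPM in the controls) also overlapped, and for Rcl1 the order of the transplants differed between the genotypes. Bysl stood at 13.0 and 9.06 CPM in the libraries labelled KO, against 12.8 and 13.7 CPM in the controls, and Nob1 at 9.58 and 2.92 CPM in the libraries labelled KO, against 8.68 and 6.12 CPM in the controls. In both, the library labelled KO of transplant 2 was the lowest of the 4. Of the large subunit genes, Pes1 stood at 22.1 and 13.5 CPM in the libraries labelled KO, against 27.003 and 20.3 CPM in the controls, Ddx21 at 71.0 and 73.4 CPM in the libraries labelled KO, against 86.7 and 66.8 CPM in the controls, and Mrto4 at 6.61 and 6.71 CPM in the libraries labelled KO, against 8.57 and 4.55 CPM in the controls. Pes1 was lower in the library labelled KO of each transplant, and the other 2 differed in sign between transplants. Of the other pathway genes, 118 were tested and 0 passed the edgeR threshold, with a median of 0.01.

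The start regions of the members were read for a motif that MYC and its relatives bind, the E-box, because Myc was lower in KO of both populations. Windows ran from 250 bases before to 50 bases after a start site, from RefSeq on GRCm38.p6. That site can lie inside the annotated span of the gene, as it does for Wdr43. Windows were present for 34 of the 40. Of these, 6 hold CACGTG, a palindrome that reads alike on both strands. For each, 30 bases around it are given 5′ to 3′ on the strand of the gene, with the motif in capitals.

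Nop2 (chr6:125131811-125131840, plus strand): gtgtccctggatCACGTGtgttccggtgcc
Ltv1 (chr10:13193092-13193121, minus strand): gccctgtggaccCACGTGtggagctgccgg
Utp20 (chr10:88826765-88826794, minus strand): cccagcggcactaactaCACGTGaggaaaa
Pes1 (chr11:3963965-3963994, plus strand): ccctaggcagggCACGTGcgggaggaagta
Tsr1 (chr11:74898092-74898121, plus strand): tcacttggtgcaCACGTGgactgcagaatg
Wdr43 (chr17:71616220-71616249, plus strand): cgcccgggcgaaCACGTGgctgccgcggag

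These 6 made up 17.6% of the members with a window, against 8.09% of 27025 genes with one and 12.4% of the 7740 of them counted in LSK. The 6 had a median log2 ratio of -0.59 in LSK and -1.19 in MyePro, and the other 28 had -0.52 and -1.13. The 6 included Nop2, with one of the lower LSK ratios (-0.78), and Pes1, with one of the highest (-0.08). A window holding the letters is a description of sequence and not of binding. Of other motifs, searched on both strands, CCGGAAG, as read by ETS factors, was in 9 members (26.5%), against 22.2% of genes counted in LSK. CCAAT was in 11 members (32.4%), against 43.4%, and GCATGCGC, as read by NRF1, in 3 members (8.82%), against 6.67%.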

How the data were processed

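The members and the gene lists were chosen with earlier results of these data known. The 25 members with values in every library follow a rule: the 3 lowest and 3 highest ratios of KO over control in LSK, MyePro and LT-HSC and of MyePro over LSK in control, and the 2 with the highest mean level per role. Other members were named after their values were seen. Polyadenylated RNA was selected before library preparation, per the labels' protocols. The authors deposited raw, unnormalized read counts for each gene, by symbol in LSK and MyePro and by Ensembl ID in LT-HSC. The submitters' processing notes list TopHat2, Picard 1.126, HTSeq 0.6.0 and build mm10. Neither annotation nor strand setting is given in the sources used here, and genes that overlap or have close copies could share reads. Rows without a gene did not enter library sizes: reads without a feature were 2.40% to 6.25% of LSK and MyePro file totals and 16.7% to 26.0% of LT-HSC ones, and reads aligned to more than 1 place 23.9% to 37.9%. An unexplained row that carries the name of Dpy30 was treated likewise.

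Counts were scaled by TMM in edgeR 4.0.16 (R 4.3.3). LSK and MyePro log2 ratios were moderated by a prior count of 2, and folds of 1.5 and 2 were counted where the mean level reached 5 CPM. Their 95% intervals are exact conditional binomial ones that cover counting error only. LT-HSC genes that reached 1 CPM in 2 or more libraries were compared by the two-sided quasi-likelihood test of edgeR, without a block, with Benjamini-Hochberg adjustment over all 12844 genes and a threshold of 0.05. The labels give the transplant of each LT-HSC library, so the numbers pair the libraries. Deviations from the group means correlated at 0.292 within transplants. P-values measure the spread between 2 pools of mice per group. DESeq2 1.42.0 and limma 3.58.1 were alternatives, and the code was tested on simulated data. The ChIP-seq samples were not analysed here.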

Additional observations from a re-analysis of the deposited data

Results flagged for a closer look

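The members' median log2 ratio of MyePro over LSK had opposite signs in the 2 genotypes, -0.10 in KO and 0.48 in control. In KO 25 members were below 0 and 15 above it, and in control all 40 were above it. In 17 members the counting interval lay below 0 in KO and above 0 in control, where 5.56% of all genes showed this, with KO values of -0.20 for Polr1a, -0.48 for Ubtf, -0.11 for Ncl, -0.12 for Npm1, -0.18 for Nolc1, -0.20 for Nop58, -0.29 for Dkc1, -0.27 for Utp20, -0.18 for Wdr43, -0.25 for Nop14, -0.26 for Nat10, -0.40 for Tsr1, -0.18 for Nob1, -0.28 for Rrp12, -0.14 for Bop1, -0.21 for Pes1 and -0.23 for Noc2l. With 1 library per group, the difference between genotypes was not tested.

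In LT-HSC 4 members were higher in the library labelled KO of each transplant, where 24.9% of all genes were, while KO LSK and KO MyePro were lower than their controls. The log2 ratios in transplants 1 and 2 were 0.36 and 0.66 for Wdr43, 0.61 and 0.77 for Wdr75, 0.33 and 0.068 for Nat10, and 0.38 and 0.41 for Nop2. A further 11 members were lower in both transplants and 25 differed in sign. The difference between these populations was not tested.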

How the results depend on the processing

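In LSK the median ratio of the members was -0.38 by library totals (9 members at least 1.5-fold lower), -0.49 by RLE size factors, -0.49 with counts thinned to the shallowest library and -0.44 by totals without the Gm26924 entry, an alternative chosen after seeing the data. In MyePro it was -1.08 by totals, -1.08 with thinned counts and -1.02 without that entry. For MyePro over LSK in control it was 0.44 by totals, 0.49 by RLE and 0.37 without the entry, and in KO -0.24 by totals (1 member 1.5-fold lower) and -0.18 without the entry. No median changed its direction under these.

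In LT-HSC the count of all genes past the threshold was 4 with the transplant number as a replicate block, 4 by totals, 1 by ERCC size factors, 4 with no filter, 4 with a 5 CPM filter, 14 by DESeq2, 1 by limma-voom and 0 to 5 with 1 library left out. The members' median was -0.55 by totals, -0.25 by ERCC and -0.37 to 0.28 with 1 library left out, when 10 to 35 members were below 0. With 1 library left out, the lone library is assumed to vary like the other group. The members past the threshold numbered 0 in each of these fits, as in the reported one, where 2 of 12844 genes passed. The cause of these moves was not tested. KO LSK is the shallowest library, with 6130320 gene counts.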

Other observations

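Targets of p53, a factor known to respond when ribosome assembly is disturbed, ran opposite to the members in LSK and MyePro. Of 20 counted in LSK 18 were higher in KO, where 4784 of 10311 genes were, with a median log2 ratio of 0.38. Of 19 counted in MyePro 18 were higher, where 4581 of 10244 genes were, with a median of 0.85. Cdkn1a, an inhibitor of cell cycle kinases, stood at 34.5 CPM in KO LSK, 14.5 in control LSK, 60.3 in KO MyePro and 8.48 in control MyePro. Mdm2, which targets p53 for degradation, stood at 62.4 CPM in KO LSK, 46.9 in control LSK, 68.0 in KO MyePro and 44.8 in control MyePro, and Btg2, an antiproliferative gene, at 40.1 CPM in KO LSK, 21.9 in control LSK, 49.1 in KO MyePro and 8.98 in control MyePro. In LT-HSC 0 of 19 targets passed the edgeR threshold, and the median was -0.21. These groups have 1 library each in LSK and MyePro, and the link of these values to the ribosome biogenesis genes was not tested.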
